A study of Homo sapiens with 6 samples.

Results

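The genes of fatty acid oxidation were examined in RNA sequencing of T24 cells, an established human bladder cancer line. The 36 genes were taken by symbol from the deposited table of 23152 genes. They encode the carnitine shuttle, the enzymes of mitochondrial beta-oxidation, the electron transfer flavoprotein, the peroxisomal enzymes and the coactivators PGC-1 alpha and PGC-1 beta. All 36 were found, and all 36 were among the 14467 genes that passed the filter on low counts. Vector (n = 3), cells with the vector treatment, was compared with oeRNF112 (n = 3), cells overexpressing RNF112, a RING finger protein of the E3 ubiquitin ligase family. All samples were grown in RPMI 1640 with fetal bovine serum. The treatment text of the labels describes siRNA transfection, which goes against the overexpression groups, and whether the sequenced cells were transfected transiently or came from a stable line was not given in the sources used here. Nothing said that replicates came from separate cultures, so the p-values measure the spread between these samples, which may be technical.

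Long-chain fatty acids are joined to coenzyme A in the cytosol and cross the mitochondrial membranes as carnitine esters. CPT1 enzymes form the ester at the outer membrane, the step that limits entry, and malonyl-CoA inhibits them. In the matrix, a cycle of dehydrogenation, hydration, a further dehydrogenation and thiolysis shortens the chain and releases acetyl-CoA, and the electrons of the initial dehydrogenation pass through the electron transfer flavoprotein to ubiquinone. Peroxisomes start the same chemistry on very long and branched chains with oxidases. The PGC-1 proteins bind PPAR and ERR nuclear receptors and raise the transcription of many of these genes.

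The vector libraries held 40326143 to 41259569 counts each and the oeRNF112 libraries 40029547 to 40541536. CPM are counts relative to library size. Taken over the plain library total, without the scaling to composition of the other CPM here, 3 counts (the limit that a count of 0 allows) equalled 0.0727 to 0.0749 CPM. Such limits cover counting error only. RNF112 itself was counted 27, 19 and 24 times in vector and 29753, 36963 and 31712 times in oeRNF112, a log2 fold change of 10.37 that matches the labels, although reads from the introduced sequence and from the endogenous gene cannot be told apart. Among markers of epithelial cells, 7 of 12 measured genes were over 1 CPM, led by keratins KRT7, KRT8 and KRT18, whereas KRT14 and CDH1 were at 0 in every vector sample. The epithelial markers summed to 3573 to 4587 CPM in vector and 2733 to 3269 CPM in oeRNF112, and 4 mesenchymal markers to 5941 to 6147 CPM and 4678 to 5355 CPM. The 6 leukocyte markers summed to 9.51 to 10.8 CPM in vector and 5.43 to 8.11 CPM in oeRNF112, and the 4 endothelial and 2 measured adipocyte markers stayed at or below 0.567 CPM in every sample. The epithelial, mesenchymal and leukocyte sums were lower in oeRNF112 without overlap, whereas the endothelial and adipocyte sums overlapped between the groups. Of 8 epithelial markers tested in edgeR, 1, EPCAM, was higher (12.5%, against 9.97% of all genes) and 3 were lower (37.5%, against 8.14%). The part of these markers in the results below was not tested.

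Of the 36 fatty acid oxidation genes, 8 passed an adjusted p of 0.05 in edgeR (22.2%, against 18.1% of all genes), in both directions. The entry enzyme CPT1A and the coactivators PPARGC1A and PPARGC1B were higher in oeRNF112, and 5 enzymes, the mitochondrial ACAD9, HADHB, ECHS1 and DECR1 and the peroxisomal DECR2, were lower. The changes were unequal in size. CPT1A was 2.70-fold higher and PPARGC1A, at 21 to 57 counts in vector, 2.64-fold higher. The 5 lower genes had between 0.687 and 0.796 times the vector level. Of the 8 calls, only those of CPT1A and ACAD9 held without each library in turn.

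In the edgeR quasi-likelihood test with Benjamini-Hochberg adjustment over all genes tested, 8 of 36 members passed an adjusted p of 0.05 (22.2%), against 18.1% of all genes. Of the members 3 were higher (8.33%, against 9.97% of all genes) and 5 were lower (13.9%, against 8.14%). These shares are descriptions of a hand-chosen list and carry no test of their own. At an unadjusted p under 0.05 the members were 17 of 36, against 33.1% of all genes. With DESeq2 3 members were higher and 11 lower, against 11.9% and 10.5% of all genes, and the 6 lower members it added were CRAT, ACADS, ACAD10, HADH, ETFB and ACAA1, with adjusted p between 0.0286 and 0.0447. Without scaling to composition (library totals in place of TMM factors) the split of all calls moved from 1442 higher and 1178 lower to 2020 higher and 659 lower, and the members lower became ACAD9, ECHS1 and DECR2, against 4.56% of all genes.

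The median log2 fold change of the 36 members was -0.19 (quartiles -0.32 and 0.09), beside 0.0027 over all genes (quartiles -0.20 and 0.24). Fitted values below 0 were found for 25 of 36 members and for 7173 of 14467 genes tested. In 14 members every oeRNF112 sample was below every vector sample, and in 5 every oeRNF112 sample was above (38.9% and 13.9% of the members). Over all genes the groups did not overlap in 17.9% with oeRNF112 lower and 18.9% with oeRNF112 higher. The samples of 1 group were not alike. Relative to the mean of the vector samples, the members' median log2 CPM was 0.007, -0.053 and 0.058 in vector replicates 1, 2 and 3, and -0.147, -0.147 and -0.171 in oeRNF112. Vector replicate 2 had 24 of 36 members below the vector mean, against 17 and 13 in the other vector samples and 24, 25 and 25 in oeRNF112.

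**Figure D1:**
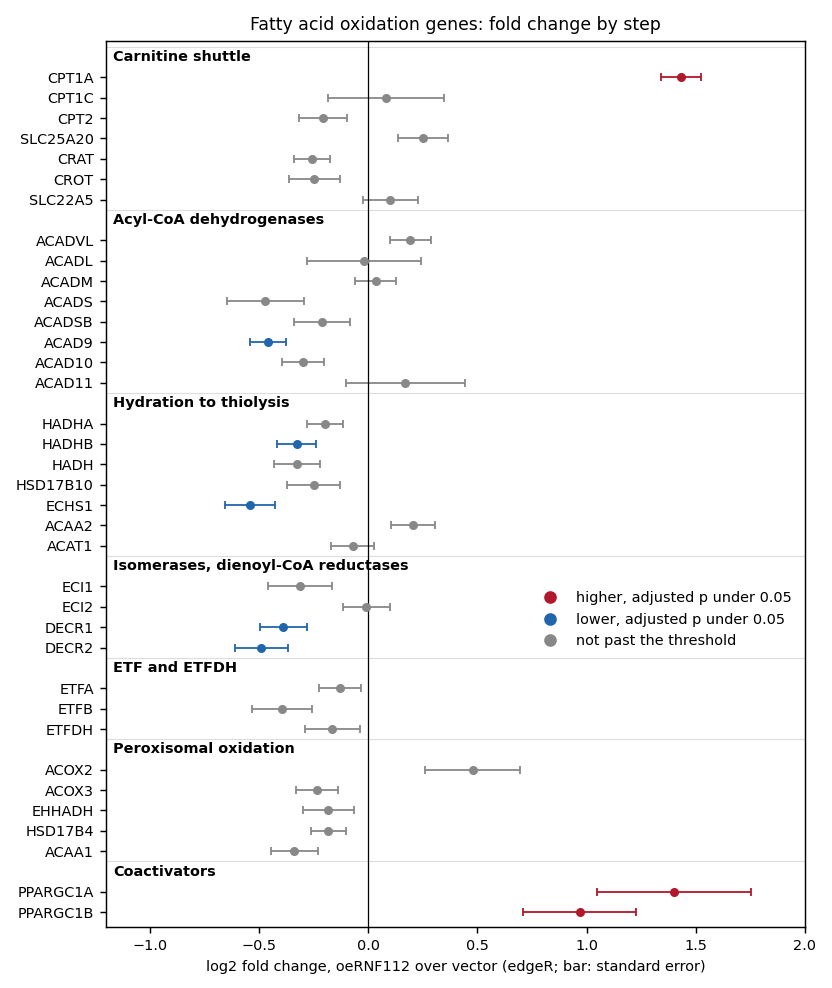
Log2 fold change of each of the 36 genes, oeRNF112 over vector, grouped by step, with the point at the edgeR estimate and the bar at its standard error. CPT1A, PPARGC1A and PPARGC1B, in red, lie to the right of 0, and the 5 genes in blue lie between -0.54 and -0.33, with most grey points, which did not pass the threshold, also left of 0.

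**Figure D2:**
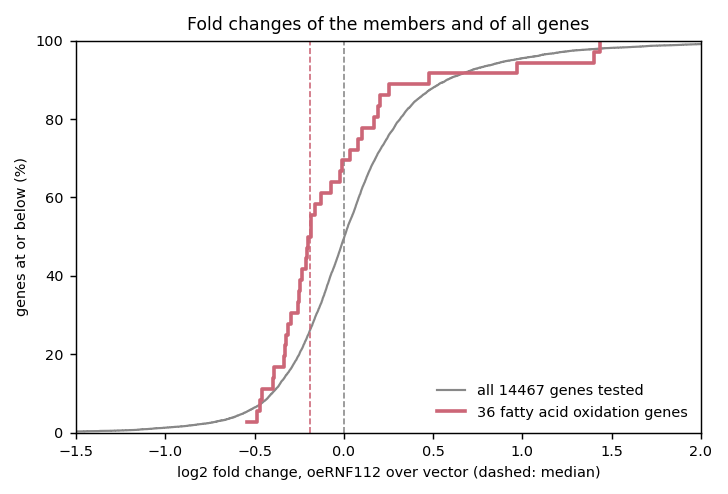
Cumulative share of genes (percent) against log2 fold change, for the 36 members in red and all 14467 genes tested in grey, with dashed lines at the medians. The member curve lies left of the grey curve through most of the range, with its median at -0.19, and joins it at the right, where CPT1A and the coactivators stand. The axis leaves out genes beyond the plotted range, RNF112 among them.

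The sequence before the transcription start is shown for the genes on which the results turn, CPT1A, PPARGC1A and ACAD9, and for HADHB, whose window lies wholly between its own start and that of HADHA, which is read in the opposite direction. Each is the 250 bases before a RefSeq start in GRCh38.p14, read along the strand of the gene, and capitals mark an E-box (CACGTG) or a cyclic AMP response element (TGACGTCA). CPT1A lies on the minus strand of chromosome 11 at chr11:68844278-68844527, PPARGC1A on the minus strand at chr4:24472906-24473155, ACAD9 on the plus strand at chr3:128879370-128879619 and HADHB on the plus strand at chr2:26244689-26244938.
CPT1A: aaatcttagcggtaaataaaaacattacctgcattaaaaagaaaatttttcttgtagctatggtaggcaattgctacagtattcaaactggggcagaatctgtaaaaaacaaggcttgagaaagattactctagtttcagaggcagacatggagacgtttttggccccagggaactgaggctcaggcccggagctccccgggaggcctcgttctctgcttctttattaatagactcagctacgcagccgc
PPARGC1A: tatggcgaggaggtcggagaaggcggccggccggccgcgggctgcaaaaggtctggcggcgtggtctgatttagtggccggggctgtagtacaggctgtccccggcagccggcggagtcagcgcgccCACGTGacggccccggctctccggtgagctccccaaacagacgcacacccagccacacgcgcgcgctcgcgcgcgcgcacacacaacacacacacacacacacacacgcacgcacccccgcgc
ACAD9: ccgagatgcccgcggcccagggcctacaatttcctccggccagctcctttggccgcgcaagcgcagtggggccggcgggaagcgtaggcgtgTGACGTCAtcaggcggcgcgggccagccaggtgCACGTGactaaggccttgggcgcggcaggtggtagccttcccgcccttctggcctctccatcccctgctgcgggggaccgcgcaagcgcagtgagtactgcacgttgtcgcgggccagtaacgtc
HADHB: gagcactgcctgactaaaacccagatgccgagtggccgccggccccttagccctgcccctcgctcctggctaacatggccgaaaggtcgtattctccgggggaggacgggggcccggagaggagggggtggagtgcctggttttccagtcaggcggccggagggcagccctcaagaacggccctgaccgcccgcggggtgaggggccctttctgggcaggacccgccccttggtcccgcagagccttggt
The ACAD9 window held both motifs, the E-box at -125 to -120 and the response element at -158 to -151 relative to the start. The PPARGC1A window held an E-box at -123 to -118, and a second PPARGC1A start, downstream within the gene, held none of the motifs searched. RefSeq windows were matched for 28 of the 36 members (38 windows), searched on both strands. E-boxes stood in 2 of the 38 windows and in 6.34% of 35116 windows of the same length. The response element stood in 3 windows, of ACAD9 and ACOX3, and in 1.65% of all windows. Neither the ERR element TCAAGGTCA, found in 0.319% of all windows, nor the PPAR type repeat of AGGTCA with 1 base between the copies, found in 0.0171%, was in a member window, and at such shares few windows of any kind hold these letters. The AGGTCA site alone, which the ERR element and the repeat contain, was in 1 member window, of ACAD10, and in 12.1% of all windows. Which start T24 cells use was not measured.

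The carnitine shuttle had 7 members, of which 1 was higher (14.3%, against 9.97% of all genes), none was lower and 6 did not pass. CPT1A, the liver type of carnitine palmitoyltransferase 1 and the most abundant CPT1 transcript per length here, had 24.8, 26.6 and 25.3 CPM in vector and 66.8, 66.1 and 74.3 CPM in oeRNF112. The groups were far apart and narrow, at 25.6 ± 0.949 and 69.1 ± 4.57 CPM (SD, n = 3 each). The log2 fold change was 1.43 (SE 0.0917), with an adjusted p of 2.2e-05 in edgeR, and it kept its direction and call without each library in turn. Per length, CPT1A rose from a mean of 4.22 to 12.2 RPKM.

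CPT1C, the brain type form with low catalytic activity, had 112, 69 and 128 counts in vector and 128, 130 and 88 in oeRNF112. Its groups overlapped fully (log2 fold change 0.08, SE 0.26). CPT1B, the muscle type form, had 0, 5 and 3 counts in vector and 5, 4 and 5 in oeRNF112. These lay close to the 3 counts that a count of 0 allows. CPT1B did not pass the filter and was not tested in the main fit, so whether it changed cannot be said. Of the summed RPKM of the 3 CPT1 genes, CPT1A held 84.8%, 90.0% and 82.5% in vector and 92.9%, 92.8% and 95.5% in oeRNF112.

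CPT2, which turns the carnitine ester back into acyl-CoA inside the mitochondrion, did not follow CPT1A. It had 23.3, 22.2 and 25.3 CPM in vector and 21.5, 22.0 and 17.9 CPM in oeRNF112, all 3 below the lowest vector sample, with a log2 fold change of -0.21 (SE 0.11, adjusted p = 0.221 in edgeR). CPT1A over CPT2, as a ratio of RPKM, was accordingly 0.489, 0.550 and 0.460 in vector and 1.43, 1.38 and 1.91 in oeRNF112. CPT2 overlaps the counted gene CZIB, and the strand setting of the counting was not given in the sources used here.

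SLC25A20, the carnitine-acylcarnitine translocase of the inner membrane, had 544, 483 and 541 counts in vector and 669, 698 and 606 in oeRNF112. Its groups did not overlap, but the log2 fold change of 0.25 (SE 0.11) did not pass (adjusted p = 0.156 in edgeR). It passed in the 3 limma fits on RPKM, which are not TMM-scaled (adjusted p of 0.0375 to 0.0436). CRAT, which makes short-chain acylcarnitines, was at 117, 119 and 126 CPM in vector and 99.3, 106 and 97.0 CPM in oeRNF112, again without overlap and just outside the threshold (log2 fold change -0.26, adjusted p = 0.0552 in edgeR). CROT, its peroxisomal counterpart for medium chains, and SLC22A5, the plasma membrane carnitine transporter OCTN2, had log2 fold changes of -0.25 and 0.10 and did not pass.

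The acyl-CoA dehydrogenases open each turn of the spiral, and each enzyme takes chains of a given length. Of 8 members 1 was lower (12.5%, against 8.14% of all genes) and none was higher. ACAD9, a long-chain dehydrogenase that also serves as an assembly factor of respiratory complex I, had 64.0, 63.1 and 67.7 CPM in vector and 45.8, 47.8 and 47.9 CPM in oeRNF112. Both groups were narrow and did not overlap, and the log2 fold change was -0.46 (SE 0.0829), with an adjusted p of 0.00543 in edgeR. The call remained without each library in turn.

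ACADVL, the very long-chain enzyme and in vector the member with the second highest RPKM, stood on the other side of 0. It had 242, 244 and 274 CPM in vector and 303, 301 and 263 CPM in oeRNF112, where oeRNF112 replicate 3 fell inside the vector range (log2 fold change 0.19, adjusted p = 0.186 in edgeR). It passed when library totals replaced TMM factors (log2 fold change 0.29, adjusted p = 0.0489 in edgeR) and in the 3 limma fits on RPKM (adjusted p of 0.0455 to 0.0459), and it overlaps the counted gene DLG4. The medium-chain enzyme ACADM had 38.7, 35.3 and 33.2 CPM in vector and 37.7, 35.5 and 36.6 CPM in oeRNF112, a difference well within the spread between replicates (log2 fold change 0.03, SE 0.0933).

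ACADS, the short-chain enzyme, varied within groups. It had 873, 730 and 1089 counts in vector and 648, 816 and 591 in oeRNF112, so that vector replicate 2 lay below oeRNF112 replicate 2, and the log2 fold change of -0.47 (SE 0.17) had an adjusted p of 0.0898 in edgeR. ACAD10 had 24.9, 25.5 and 24.7 CPM in vector and 21.2, 18.7 and 21.2 CPM in oeRNF112 without overlap and an adjusted p of 0.0546 in edgeR. ACADSB, which acts on short branched chains of isoleucine breakdown, had a log2 fold change of -0.21 and did not pass. ACADL and ACAD11 were near the floor of expression, at a mean of 0.37 and 0.26 RPKM in vector, and counts of 26 to 64 per sample left a standard error of 0.26 or more on the log2 scale.

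**Figure D3:**
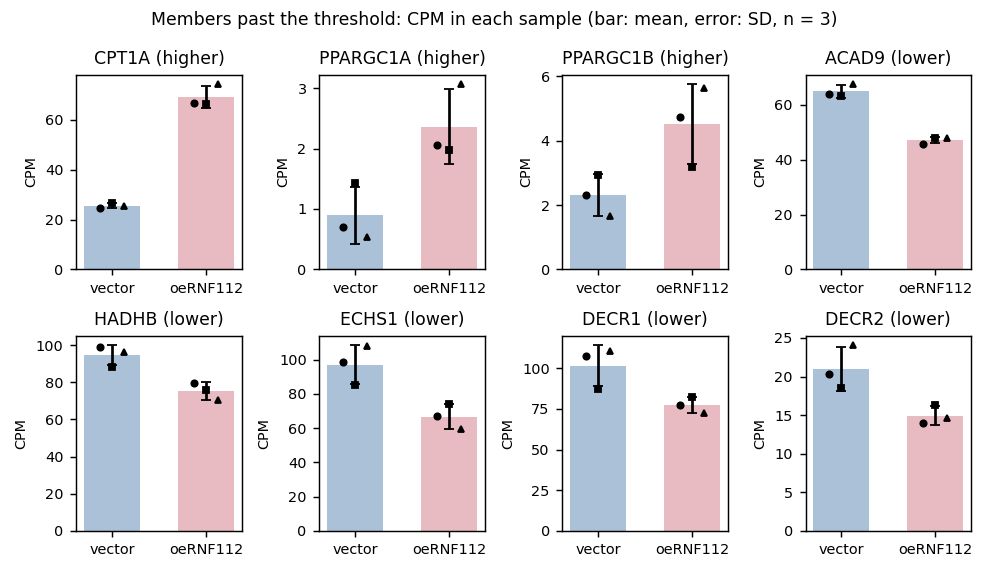
CPM (TMM-scaled) in each sample of the 8 members past an adjusted p of 0.05, with bars at the mean, error bars at the SD (n = 3) and marker shapes for replicates 1 (circle), 2 (square) and 3 (triangle). CPT1A and ACAD9 have narrow groups far apart, and in all 8 genes vector replicate 2 is the vector sample closest to oeRNF112.

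The enzymes from hydration to thiolysis had 7 members, of which 2 were lower (28.6%, against 8.14% of all genes), none was higher and 5 did not pass. ECHS1, the short-chain enoyl-CoA hydratase, had the lowest fold change of all members. It had 98.3, 85.1 and 108 CPM in vector and 66.9, 73.8 and 59.5 CPM in oeRNF112, 97.1 ± 11.4 against 66.7 ± 7.16 CPM (SD, n = 3 each). The samples did not overlap, and vector replicate 2 and oeRNF112 replicate 2 were the nearest pair. The log2 fold change was -0.54 (SE 0.11), with an adjusted p of 0.0111 in edgeR, which became 0.0583 without vector replicate 1 and 0.0505 without oeRNF112 replicate 1.

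HADHA and HADHB are the alpha and beta subunits of the mitochondrial trifunctional protein, which carries out hydration, dehydrogenation and thiolysis of long chains, and their RefSeq starts lie 306 bases apart in opposite directions on chromosome 2. HADHB had 98.9, 88.4 and 96.4 CPM in vector and 79.7, 75.8 and 70.5 CPM in oeRNF112, with no overlap, a log2 fold change of -0.33 (SE 0.0889) and an adjusted p of 0.0308 in edgeR. This call depended on each of 5 libraries. The adjusted p in edgeR was 0.149 without vector replicate 1, 0.0649 without vector replicate 3, and 0.0731, 0.0723 and 0.121 without oeRNF112 replicates 1, 2 and 3. With library totals it was 0.0828 in edgeR, and in the limma fits on RPKM it was 0.0550 to 0.0600. HADHA had 313, 282 and 304 CPM in vector and 260, 268 and 254 CPM in oeRNF112, also without overlap, with a log2 fold change of -0.20 (SE 0.08, adjusted p = 0.119 in edgeR). The RPKM ratio of HADHA to HADHB was 2.44, 2.46 and 2.43 in vector and 2.52, 2.73 and 2.78 in oeRNF112.

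HADH, the medium- and short-chain hydroxyacyl-CoA dehydrogenase, had 47.6, 40.5 and 47.6 CPM in vector and 34.1, 39.6 and 34.7 CPM in oeRNF112, an adjusted p of 0.0562 in edgeR. Its vector replicate 2 again lay nearest to oeRNF112. HSD17B10, a dehydrogenase of branched and short chains that is also a subunit of mitochondrial RNase P, had a log2 fold change of -0.25, and ACAT1, the acetoacetyl-CoA thiolase, one of -0.07, and neither passed. ACAA2, the mitochondrial ketoacyl-CoA thiolase, was the only member of this group fitted above 0, at 40.9, 39.5 and 40.8 CPM in vector and 49.7, 49.3 and 40.5 CPM in oeRNF112 (log2 fold change 0.20, adjusted p = 0.193 in edgeR). Its oeRNF112 replicate 3 lay within the vector range.

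Unsaturated fatty acids need isomerases and dienoyl-CoA reductases to bring their double bonds into a form that the spiral accepts. Of 4 members 2 were lower (50%, against 8.14% of all genes) and none was higher. DECR1, the mitochondrial reductase, had 107, 87.3 and 110 CPM in vector and 77.7, 82.4 and 72.8 CPM in oeRNF112. DECR2, the peroxisomal reductase, had 20.4, 18.5 and 24.1 CPM in vector and 13.9, 16.3 and 14.6 CPM in oeRNF112. In both genes every oeRNF112 sample was below every vector sample, and vector replicate 2 was the lowest of its group. The log2 fold changes were -0.39 (SE 0.11) for DECR1 and -0.49 (SE 0.12) for DECR2, with adjusted p of 0.0323 and 0.0232 in edgeR. For DECR1 the adjusted p in edgeR was 0.145 and 0.0861 without vector replicates 1 and 3, and 0.108 and 0.112 without oeRNF112 replicates 1 and 3. For DECR2 it was 0.0792, 0.0628, 0.0991 and 0.0698 in edgeR without the same libraries. DECR1 also missed the threshold with library totals (adjusted p = 0.0666 in edgeR) and in the limma fits on RPKM (0.0611 to 0.0646).

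The isomerases ECI1 and ECI2 did not pass. ECI1, of mitochondria, had 43.1, 37.3 and 50.0 CPM in vector and 33.8, 41.6 and 29.4 CPM in oeRNF112, and its replicates 2 overlapped (log2 fold change -0.31, adjusted p = 0.163 in edgeR). ECI2, which is found in mitochondria and peroxisomes, had 129, 107 and 135 CPM in vector and 121, 133 and 114 CPM in oeRNF112, and its log2 fold change was -0.01 (SE 0.11).

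The electron transfer flavoprotein takes electrons from all the acyl-CoA dehydrogenases. None of its 3 members passed in edgeR in either direction. An unadjusted p under 0.05 in edgeR was found for 1 of them, ETFB, against 33.1% of all genes. DESeq2 called ETFB alone of the 3, against 22.4% of all genes. ETFB, the beta subunit, had 54.2, 46.3 and 64.8 CPM in vector and 41.0, 47.8 and 36.8 CPM in oeRNF112, with an overlap at replicate 2 of both groups (log2 fold change -0.39, SE 0.14, adjusted p = 0.0752 in edgeR). ETFA, the alpha subunit, had a log2 fold change of -0.13, and ETFDH, the ubiquinone oxidoreductase that takes up the electrons, one of -0.16. The RPKM ratio of ETFA to ETFB was 1.52, 1.56 and 1.29 in vector and 1.65, 1.65 and 1.94 in oeRNF112. ETFDH overlaps the counted gene PPID.

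The peroxisomal reductase DECR2, which was lower, was grouped above with the reductases and is not counted here. None of the 5 members grouped under peroxisomal oxidation passed in edgeR. The groups did not overlap in 4 of them, 3 with oeRNF112 lower and 1 higher, against 17.9% and 18.9% of all genes. An unadjusted p under 0.05 in edgeR was found for 3 (33.1% of all genes). DESeq2 called 1, ACAA1, against 22.4% of all genes. ACOX2, the branched-chain oxidase, had 63, 70 and 53 counts in vector and 89, 76 and 109 in oeRNF112, and was the only one fitted above 0 (log2 fold change 0.48, SE 0.22, adjusted p = 0.154 in edgeR). ACOX3, the other branched-chain oxidase, HSD17B4, a bifunctional enzyme, and ACAA1, the peroxisomal thiolase, had all oeRNF112 samples below the lowest vector sample, with log2 fold changes of -0.24, -0.18 and -0.34. ACAA1 had 40.1, 35.5 and 44.2 CPM in vector and 30.4, 34.5 and 29.9 CPM in oeRNF112 (adjusted p = 0.0572 in edgeR). EHHADH, the other bifunctional enzyme, had a log2 fold change of -0.18, and vector replicate 3 lay below its oeRNF112 samples.

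Both coactivators passed, at very low levels. PPARGC1A, which encodes PGC-1 alpha, had 28, 57 and 21 counts in vector and 85, 81 and 130 in oeRNF112, or 0.71, 1.43 and 0.54 CPM and 2.05, 1.97 and 3.07 CPM. PPARGC1B, which encodes PGC-1 beta, had 92, 118 and 64 counts in vector and 197, 131 and 239 in oeRNF112, or 2.33, 2.95 and 1.66 CPM and 4.75, 3.19 and 5.64 CPM. No oeRNF112 sample overlapped a vector sample in either gene, and vector replicate 2 was the highest of its group in both.

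The log2 fold changes were 1.40 (SE 0.35) for PPARGC1A and 0.97 (SE 0.26) for PPARGC1B, with adjusted p of 0.0231 and 0.0300 in edgeR. For PPARGC1A the adjusted p in edgeR was 0.1001 and 0.0627 without vector replicates 1 and 3, and 0.0518 and 0.0858 without oeRNF112 replicates 1 and 3. For PPARGC1B it was 0.102, 0.0814, 0.0919 and 0.105 in edgeR without the same libraries. PPARGC1B also missed the threshold in limma on log2(RPKM + 1), at an adjusted p of 0.0551. The log2 fold change stayed between 1.15 and 1.91 for PPARGC1A and between 0.78 and 1.18 for PPARGC1B over the 6 fits without 1 library.

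**Figure D4:**
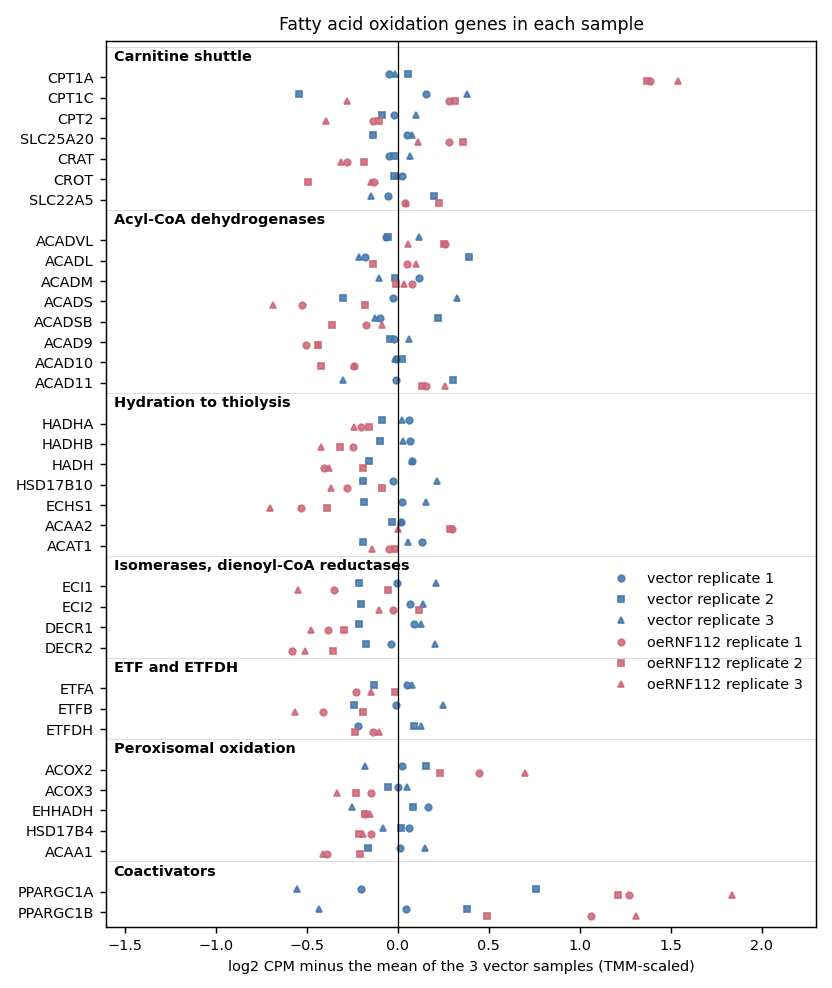
Log2 CPM (TMM-scaled) of each member in each sample, minus the mean of the 3 vector samples, with vector in blue, oeRNF112 in red and a marker shape per replicate number. The red points of CPT1A lie between 1.37 and 1.54, far right of its blue points, those of PPARGC1A are more widely spread, and the blue squares (vector replicate 2) lie left of the other blue points for ECHS1, DECR1, DECR2, ECI1, ETFB and ACAA1.

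By group medians, vector replicate 2 was the vector sample nearest to oeRNF112 in several groups, though not in the acyl-CoA dehydrogenases or peroxisomal oxidation. The median deviation of the hydration to thiolysis group was -0.156 in vector replicate 2, beside 0.063 and 0.056 in the other vector samples and -0.158 in oeRNF112 replicate 2. That of the isomerases and reductases was -0.207 in vector replicate 2 and -0.174 in oeRNF112 replicate 2. The electron transfer flavoprotein group was at -0.132 in vector replicate 2, beside -0.010 and 0.128 in the other vector samples. The coactivators, which were higher in oeRNF112, were at 0.571 in vector replicate 2, beside -0.078 and -0.492. Without vector replicate 2, 11 members were lower instead of 5, against 10.5% of all genes. The added 6 were ACADS, HADH, HSD17B10, ECI1, ETFB and ACAA1, with adjusted p between 0.0135 and 0.0493 in edgeR. The number lower was 1 without vector replicate 1 (2.43% of all genes) and 2 without vector replicate 3 (5.20%). It was 1, 6 and 2 without oeRNF112 replicates 1, 2 and 3 (2.93%, 6.86% and 3.63% of all genes).

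The levels of the members spanned about 3 orders of magnitude in RPKM. The highest vector means were those of HADHA at 98.4 ± 3.58 RPKM, ACADVL at 94.1 ± 6.08, ECI2 at 81.3 ± 8.47, ECHS1 at 73.5 ± 7.44 and HSD17B10 at 70.2 ± 9.15 (SD, n = 3 each). Neighbours in this order overlapped in their vector samples, except that the lowest ACADVL sample (89.1 RPKM) was above the highest ECI2 sample (88.1 RPKM). In oeRNF112 ACADVL led at 115 ± 7.65 RPKM, above HADHA at 91.5 ± 0.983, and ECHS1 stood at 53.9 ± 4.88. The lowest were PPARGC1A at 0.075 ± 0.041, PPARGC1B at 0.17 ± 0.051, ACAD11 at 0.26 ± 0.061 and ACADL at 0.37 ± 0.10 RPKM in vector. CPT1A, at 4.22 RPKM in vector, was below CPT2 at 8.46 RPKM, and at 12.2 RPKM in oeRNF112 it was above CPT2 at 7.82 RPKM.

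**Figure D5:**
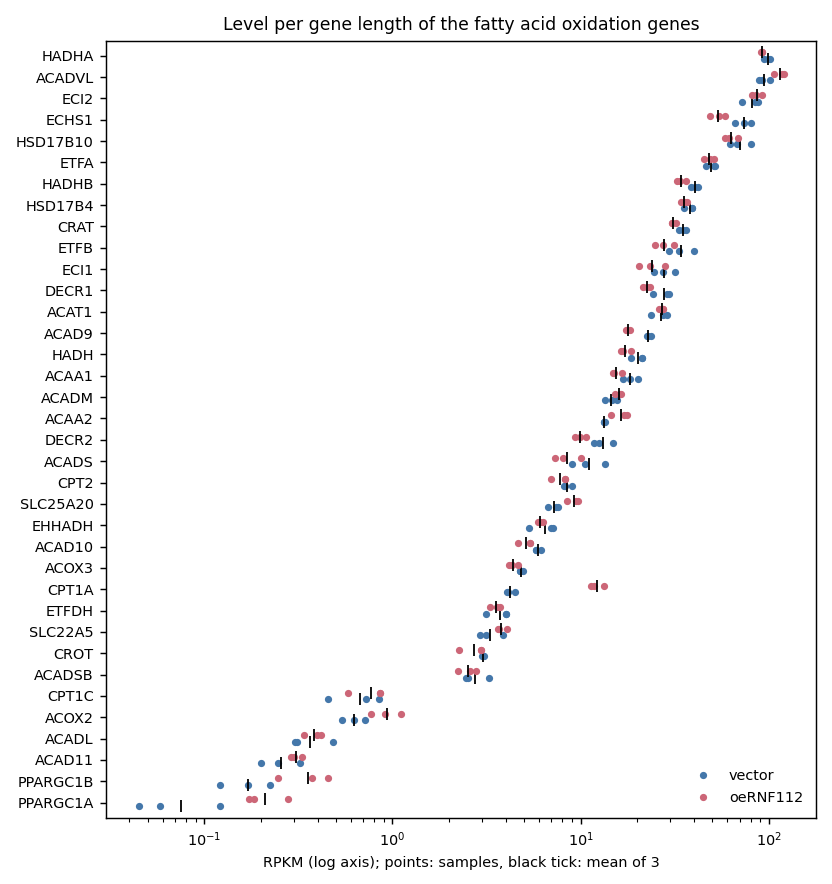
RPKM of each member in each sample on a log axis, ordered by the vector mean, with vector in blue, oeRNF112 in red and black ticks at the means of 3. HADHA and ACADVL lie near 100 RPKM and PPARGC1A near 0.1 RPKM, and CPT1A is the gene whose red points stand farthest from the blue ones among those above 1 RPKM.

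Other genes that act on the pathway were read from lists beside the members. Of 16 regulators, 2 were higher (12.5%, against 9.97% of all genes) and 2 were lower (12.5%, against 8.14%). The median of the 16 log2 fold changes was -0.01. PDK4, the kinase that turns off pyruvate dehydrogenase and is a target of PPARs, had 57, 82 and 48 counts in vector and 134, 120 and 174 in oeRNF112 (log2 fold change 1.11, SE 0.24, adjusted p = 0.0111 in edgeR). The groups did not overlap, and the adjusted p was 0.0577 in edgeR without vector replicate 1. PPARD, the receptor PPAR delta, was higher by a log2 fold change of 0.29 (adjusted p = 0.0407 in edgeR), while the partners RXRA and RXRB were lower, at -0.35 and -0.44 (adjusted p = 0.0202 and 0.0211 in edgeR). These smaller changes depended on single libraries. PPARD missed the threshold without any 1 of the 6 (adjusted p of 0.0562 to 0.148 in edgeR). RXRA missed it without vector replicate 1 or any oeRNF112 library (0.0503 to 0.0740), and RXRB without replicate 1 or 3 of either group (0.0544 to 0.0922).

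Of 6 further shuttle and carnitine genes tested none passed in edgeR, at a median log2 fold change of 0.02, while 3 had an unadjusted p under 0.05 (33.1% of all genes did) and DESeq2 called 1 (22.4% of all genes). Of 9 further peroxisomal lipid genes 1 was lower (11.1%, against 8.14% of all genes) and none was higher. That gene was SCP2, a sterol carrier with thiolase activity, at 145, 133 and 135 CPM in vector and 110, 115 and 106 CPM in oeRNF112 (log2 fold change -0.32, adjusted p = 0.0263 in edgeR). Without vector replicate 1, oeRNF112 replicate 1 or oeRNF112 replicate 3 its adjusted p was 0.103 to 0.140 in edgeR. Of 6 genes of flavin supply and electron transfer flavoprotein partners 1 was higher (16.7%, against 9.97% of all genes). That was RFK, the riboflavin kinase, at 19.8, 20.6 and 19.7 CPM in vector and 26.6, 32.7 and 34.2 CPM in oeRNF112. Its log2 fold change was 0.64 (SE 0.11), with an adjusted p of 0.00470 in edgeR, and the vector samples lay close together below all oeRNF112 samples. RFK passed in all 15 alternatives.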

How the data were processed

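The authors deposited raw counts of reads per gene and RPKM values (reads relative to gene length and library size, made by the authors from the same counts: 1 length per gene accounted for the RPKM of 20637 of 20637 genes, tolerance 0.001). Libraries were made with a stranded mRNA kit from TRIzol RNA. The submitters' processing notes name Trimmomatic 0.36, Subread 1.5.1, featureCounts and GRCh38. The aligner, annotation and strand setting were not given in the sources used here.

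Counts were tested in R 4.3.3 with edgeR 4.0.16 (filterByExpr, TMM factors, quasi-likelihood test, Benjamini-Hochberg over 14467 genes, adjusted p under 0.05) over all 6 samples, and the fit was tested on simulated data. Alternatives were DESeq2 1.42.0, its size factors in edgeR, library totals, other filters, the replicate number as a block, limma 3.58.1 on log2(RPKM + 1) or log2(RPKM + 0.1), and each library left out. Printed CPM are TMM-scaled, and RPKM are not. The members and lists were chosen with earlier results of these data known. Every member, RNF112, CPT1B and up to 5 called genes of each list are named. Marker genes were named after their values were seen. No 2 samples were copies of each other. Positions are RefSeq, and 10 of 36 members overlap another counted gene.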

Additional observations from a re-analysis of the deposited data

How the results depend on the processing

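The replicate numbers did not pair the samples (correlations of same-numbered deviations -0.116, -0.363 and -0.296), and with the replicate number as a block the calls fell to 618 higher and 258 lower over all genes, and to 1 higher and 0 lower among the members. CPT1A was that 1 member, and it passed in all 15 alternatives with log2 fold changes of 1.33 to 1.53. ACAD9 was lost only with the block (adjusted p = 0.0732, edgeR). The members lower were 11 of 36 with DESeq2 (against 10.5% of all genes), 3 with library totals (against 4.56%) and 3 in each limma fit. The members higher were 5 of 36 with limma on log2(RPKM + 0.1), where 1919 of all 14467 genes tested were higher. Without 1 library at a time the members higher were 1 (CPT1A, without replicate 1 or 3 of either group) to 3 and the members lower 1 (without vector replicate 1 or oeRNF112 replicate 1) to 11 (without vector replicate 2). The median of the members was -0.098 with library totals and -0.085, -0.097 and -0.111 with limma on log2(RPKM + 1), on log2(RPKM + 0.1) and on genes of a mean RPKM of at least 1. Over all genes, the genes lower were 659 with library totals and 669, 682 and 603 in the same limma fits, and without 1 library 702 to 1841 were higher and 359 to 1546 lower. The direction turned for genes near 0. ACADL was at 0.0709, 0.00067, 0.0215 and 0.0739 with library totals, the block, limma on log2(RPKM + 1) and on log2(RPKM + 0.1). With library totals and the limma fits in the order above, ACAT1 was at 0.0224, 0.0254, 0.0264 and 0.0254, and ECI2 at 0.0847, 0.0872, 0.0882 and 0.0872. Without 1 library, CPT1C ranged from -0.15 to 0.28, ACADL from -0.13 to 0.21, ACADM from -0.0144 to 0.108, ACAT1 from -0.16 to 0.0088 and ECI2 from -0.107 to 0.0597. The fit on genes of a mean RPKM of at least 1 gave no value for members below that level. The causes were not tested. Low counts limit the estimates of CPT1C, ACADL, ACAD11, ACOX2, PPARGC1A and PPARGC1B. PPARGC1A had 28, 57 and 21 counts in vector and a standard error of 0.35 (log2).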

Other observations

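Acetyl-CoA from the spiral enters the tricarboxylic acid cycle. Of 17 genes of this cycle 1 was higher (5.88%, against 9.97% of all genes) and 3 were lower (17.6%, against 8.14%). The median over the list was -0.16 (log2), and 15 of 17 were fitted below 0, as were 7173 of all 14467 genes tested. The 3 subunits of the NAD-dependent isocitrate dehydrogenase did not share a direction. IDH3A, the catalytic subunit, had 64.6, 64.1 and 64.7 CPM in vector and 72.4, 78.4 and 85.04 CPM in oeRNF112 (log2 fold change 0.29, adjusted p = 0.0499 in edgeR). IDH3B and IDH3G had log2 fold changes of -0.44 and -0.40 (adjusted p = 0.0259 and 0.0238 in edgeR). SDHC, a membrane subunit of succinate dehydrogenase, had 154, 144 and 151 CPM in vector and 117, 124 and 107 CPM in oeRNF112 (log2 fold change -0.37, adjusted p = 0.0179 in edgeR). None of these 4 calls held without vector replicate 1, oeRNF112 replicate 1 or oeRNF112 replicate 3. The adjusted p in edgeR reached 0.192 for IDH3A, 0.0940 for IDH3B, 0.0920 for IDH3G and 0.0966 for SDHC without 1 library, and IDH3A missed the threshold without each of the 6.

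Of 8 genes tested for ketone bodies and odd chains, 2 were lower (25%, against 8.14% of all genes) and none was higher. PCCB, the beta subunit of propionyl-CoA carboxylase, had 31.1, 31.5 and 31.6 CPM in vector and 21.6, 25.8 and 23.0 CPM in oeRNF112 (log2 fold change -0.42, adjusted p = 0.0172 in edgeR). BDH2, a cytosolic dehydrogenase linked to ketone bodies, had a log2 fold change of -0.37 (adjusted p = 0.0350 in edgeR). The groups did not overlap in either gene, and without vector replicate 1, oeRNF112 replicate 1 or oeRNF112 replicate 3 neither passed, with an adjusted p of up to 0.0894 for PCCB and 0.149 for BDH2 in edgeR. BDH2 also missed it without vector replicate 3 (adjusted p = 0.0739 in edgeR). IDH3B and IDH3G likewise missed it there, at 0.0673 and 0.0604.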
